A study of Mus musculus with 18 samples.

Results

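The transcripts of 10 chemokines and inflammatory cytokines (*Ccl2*, *Ccl3*, *Ccl4*, *Ccl12*, *Cxcl12*, *Cx3cl1*, *Il1b*, *Il6*, *Tnf* and *Il34*) were followed in the retinal pigment epithelium (RPE) of *rd1* mice. They were chosen by name, and all 10 were among the 47729 genes of the count table. The *rd1* mouse carries a mutation in *Pde6b*, loses its rods early, and was studied here at P40. In each of 9 mice, 1 eye had received AAV Best1 Nrf2, which carries the human Nrf2 cDNA, together with AAV Best1 GFP (the Best1-Nrf2 group), and the contralateral eye had received AAV Best1 GFP only (the control group), so that both groups carried a degenerating retina, a subretinal injection and GFP. The eyes were not matched for vector: by the study's methods the Nrf2 vector was an added dose of AAV in another capsid, and the GFP vector alone made a smaller total. The effects of Nrf2 and of the added vector cannot be told apart here. The human Best1 promoter directs expression to the RPE, so the vector was not aimed at the immune, vascular or neural cells of the eye. The number of mice is that of the labels. The study's methods give fewer pairs for this strain and age, and the difference could not be settled here. RNA came from eyecups after the retina was taken off, and such a preparation can hold RNA of the choroid, of immune cells and of retinal remnants beside that of the RPE.

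Chemokines are small secreted proteins that steer leukocytes along a gradient by way of G protein-coupled receptors. Those of the CC family (*Ccl2*, *Ccl3*, *Ccl4*, *Ccl12*) mostly attract monocytes, macrophages and lymphocytes. Cxcl12 acts on Cxcr4 in development and in the homing of cells, and Cx3cl1, a chemokine tethered to the membrane of neurons and other cells, signals to Cx3cr1 on microglia and macrophages. Il1b, Il6 and Tnf are classical inflammatory cytokines made largely by activated myeloid cells. Il34 is a ligand of the colony-stimulating factor 1 receptor (Csf1r) and supports the survival of microglia and other tissue macrophages.

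The 4 CC chemokines lie on chromosome 11 in GRCm38, in 2 pairs. *Ccl2* (chr11:82035571-82037453) and *Ccl12* (chr11:82101845-82103400) are on the plus strand, whereas *Ccl3* (chr11:83647844-83649355) is on the minus strand beside *Ccl4* (chr11:83662584-83664683) on the plus strand. None of the 31-base words in their exons occurred in another annotated gene, so reads were not likely to be split among these relatives. *Il34* (chr8:110741829-110805924, minus strand) overlaps the genes *Gm15894* and *Gm15895* and shared 2.37% of its words with other genes. *Il1b* overlaps its antisense gene *Il1bos*, and *Ccl2* overlaps *Gm17268*. The library kit does not mark strand, so reads from the words that *Il34* shares cannot be told apart. For *Il1b* and *Ccl2* no word of the exons occurred in another annotated gene on either strand. The other members lie on chromosome 6 (*Cxcl12*, chr6:117168535-117181367), chromosome 8 (*Cx3cl1*, chr8:94772009-94782427), chromosome 2 (*Il1b*, chr2:129364570-129371139), chromosome 5 (*Il6*, chr5:30013114-30019981) and chromosome 17 (*Tnf*, chr17:35199381-35202007). All 10 are protein-coding genes.

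The promoter sequences of 7 of the 10 genes were found in RefSeq (GRCm38.p6), each from 250 bases before to 50 bases after the start of transcription, and 4 are printed: *Ccl3*, which rose, *Ccl12*, a CC chemokine that was not called, *Tnf*, a cytokine that was not called, and *Il6*, which was too scarce to test. Capitals mark 2 kinds of short match: the NF-kB letters GGGNNNNNCC on either strand and the TATA box letters TATAAA on the strand of the gene.
Ccl3 (chr11:83649329-83649628, minus strand): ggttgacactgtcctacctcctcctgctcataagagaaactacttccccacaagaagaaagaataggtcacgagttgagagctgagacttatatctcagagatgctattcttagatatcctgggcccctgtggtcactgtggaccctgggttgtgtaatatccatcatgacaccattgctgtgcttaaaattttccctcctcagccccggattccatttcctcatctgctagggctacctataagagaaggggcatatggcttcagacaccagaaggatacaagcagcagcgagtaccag
Ccl12 (chr11:82101595-82101894, plus strand): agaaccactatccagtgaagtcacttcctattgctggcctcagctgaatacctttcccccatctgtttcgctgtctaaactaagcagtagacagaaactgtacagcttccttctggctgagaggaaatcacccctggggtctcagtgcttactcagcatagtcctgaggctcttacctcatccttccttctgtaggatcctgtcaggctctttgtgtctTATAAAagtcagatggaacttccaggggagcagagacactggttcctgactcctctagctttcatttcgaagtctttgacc
Tnf (chr17:35201958-35202257, minus strand): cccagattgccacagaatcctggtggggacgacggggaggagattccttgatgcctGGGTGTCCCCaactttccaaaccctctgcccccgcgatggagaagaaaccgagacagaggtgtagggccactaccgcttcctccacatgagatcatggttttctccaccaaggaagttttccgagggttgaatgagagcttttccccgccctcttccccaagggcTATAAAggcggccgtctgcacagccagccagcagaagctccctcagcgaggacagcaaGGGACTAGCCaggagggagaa
Il6 (chr5:30012864-30013163, plus strand): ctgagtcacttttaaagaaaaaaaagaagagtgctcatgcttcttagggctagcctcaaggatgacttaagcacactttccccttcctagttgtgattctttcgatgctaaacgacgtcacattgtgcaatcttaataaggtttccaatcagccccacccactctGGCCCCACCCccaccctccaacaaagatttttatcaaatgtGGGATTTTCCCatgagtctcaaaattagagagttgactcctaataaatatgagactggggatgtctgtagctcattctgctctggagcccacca

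NF-kB is the factor through which inflammatory signals induce many cytokine genes. Its letters were found in 3 of the 7 promoters (*Tnf*, *Il6* and *Cxcl12*), and in 50.8% of the 32851 promoters of the same length. In *Tnf* they began 194 bases before the start, where the same 10 letters read on both strands, and again 30 bases after it. In *Il6* they began 85, 44 and 43 bases before the start, the last 2 being overlapping matches on opposite strands. The TATA box letters were found in 4 of the 7 (*Ccl12*, *Cx3cl1*, *Il1b* and *Tnf*) and in 8.32% of all promoters. The letters TGACNNNGC of the antioxidant response element, to which Nrf2 binds, were found on neither strand in any of the 7 and in 12.4% of all promoters. The *Ccl3* window held none of these letters, which says only that they are absent from this window. These matches are descriptions of the sequence and not evidence of binding.

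Library totals ranged from 18956748 to 49598700 counts and did not differ between the eyes beyond their spread (2-sided exact sign-flip permutation test over 9 mice, p = 0.148; 5 of 9 mice had more counts on the treated side). Levels are given as CPM (counts scaled to library size) after TMM scaling. *Nfe2l2*, the mouse gene for Nrf2, to which reads of the like human cDNA can also map, checked the labels: it ranged from 76.7 to 134 CPM in control eyes and from 275 to 704 CPM in Best1-Nrf2 eyes, so the groups did not overlap. The control library of mouse 8 was the smallest and had the highest *Nfe2l2* level of its group, and the Best1-Nrf2 library of mouse 6 had the lowest of its group, so results were also computed without these 2 mice. Markers of the RPE were abundant in both groups: *Rpe65*, the isomerase of the visual cycle, had a median of 2201 CPM in control and 239 CPM in treated eyes.

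The 10 transcripts fell into an abundant and a scarce class. To compare levels between genes, CPM were divided by the exon length in kilobases (CPM per kb). In control eyes *Cx3cl1* had the highest median (5.82 CPM per kb), followed by *Il34* (2.73) and *Cxcl12* (1.92). The other 7 had medians of 0.389 (*Ccl12*), 0.382 (*Ccl4*), 0.292 (*Tnf*), 0.279 (*Ccl2*), 0.149 (*Il1b*), 0.120 (*Ccl3*) and 0 CPM per kb (*Il6*). The ranges of neighbours in this order overlapped in each case. In Best1-Nrf2 eyes the first 3 were the same, *Ccl3* was next (1.32 CPM per kb) ahead of *Ccl2* (0.994), and *Il6* was again last. Only 3 of the 10 (*Cxcl12*, *Cx3cl1* and *Il34*) had 10 counts or more in all 18 libraries, and 7 had a control median under 1 CPM.

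Of the 10 transcripts, 9 passed the filter on low counts, and *Il6* did not. In the paired test (edgeR quasi-likelihood F test with mouse as a block, adjusted over all genes), 3 of the 9 rose with Best1-Nrf2 (*Ccl2*, *Ccl3* and *Il34*) and none fell, with 4 at an unadjusted p under 0.05, which 12.8% of all genes tested had. Across all 18958 genes tested, 4.25% were called in either direction, 3.12% as higher and 1.13% as lower. Among the 3069 genes with a mean log2 CPM under 0, to which *Ccl2* and *Ccl3* belong, 1.24% were called as higher. The median log2 fold change was 0.67 over the 9 and -0.03 over all genes. The ranges of the eyes overlapped between the groups for all 10. The share of all genes whose ranges overlapped was not counted.

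**Figure D1:**
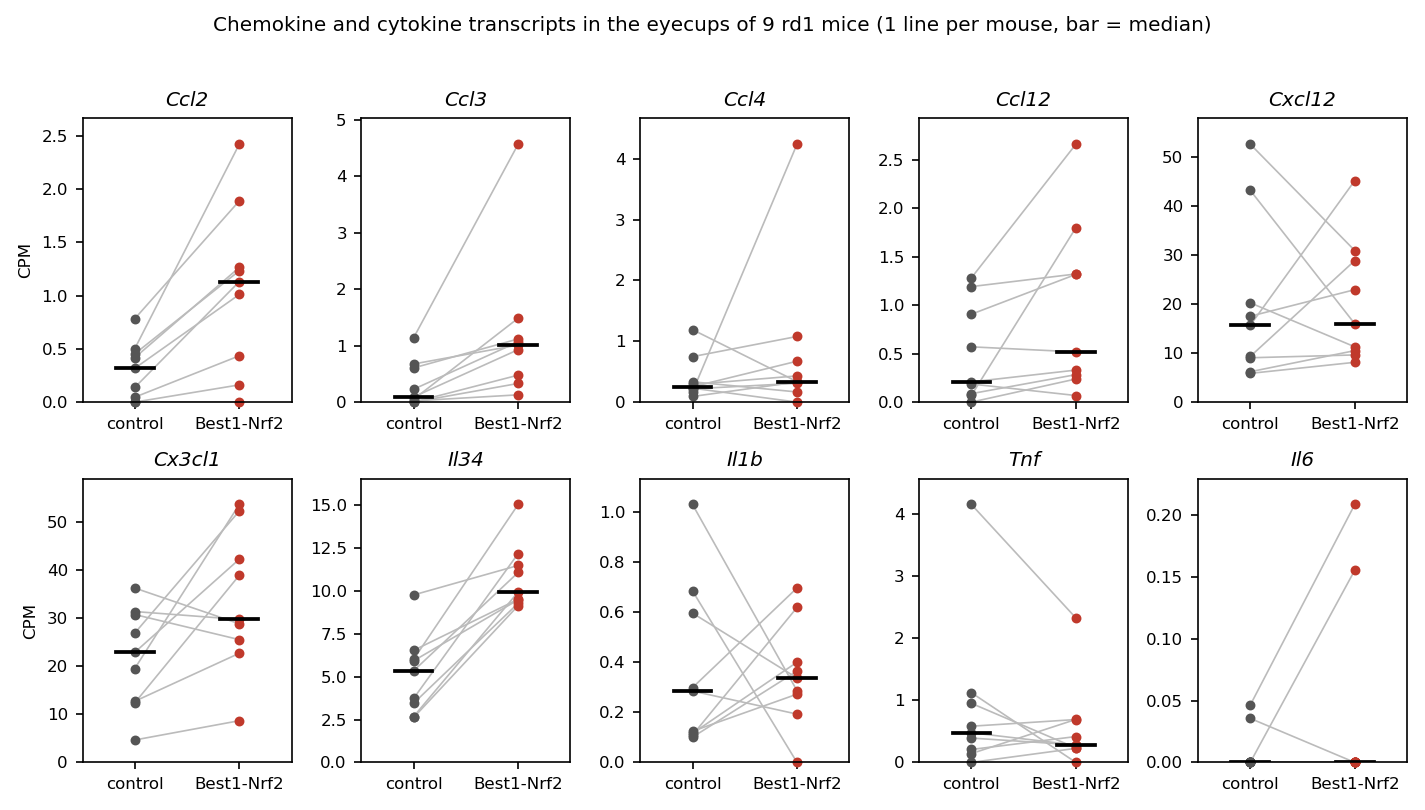
Level of each transcript in CPM (vertical axis, from 0, a separate scale for each gene) in the control and the Best1-Nrf2 eye of 9 mice. Points are eyes, lines join the eyes of a mouse, and bars are medians. The lines of *Ccl3* and *Il34* go up in 9 of 9 mice, those of *Ccl2* in 8 of 9, while those of *Cxcl12*, *Il1b* and *Tnf* cross.

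*Ccl2* encodes the main chemokine for monocytes that carry Ccr2. It had a low of 0, a median of 0.318 and a high of 0.783 CPM in control eyes, and 0, 1.13 and 2.42 CPM in Best1-Nrf2 eyes. The treated eye was higher in 8 of 9 mice, and in mouse 9 both eyes had no count. Of the treated eyes, 6 lay above every control eye. On the log2 scale the fold change was 2.06 ± 0.40 (SE, n = 9 mice; adjusted p = 0.0122), or 4.17-fold, with a 95% interval of 2.28- to 7.64-fold. These were small numbers of reads, with a median of 8 counts in control and 39 in Best1-Nrf2 libraries. Without the mouse block the log2 fold change was 1.83 and was not called (adjusted p = 0.332; range over its alternatives, 5.1e-05 to 1.00).

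*Ccl3* encodes macrophage inflammatory protein 1-alpha, a ligand of Ccr1. Its level ran from 0 through a median of 0.0918 to 1.14 CPM in control eyes, and from 0.129 through 1.01 to 4.56 CPM in Best1-Nrf2 eyes. All 9 mice had the higher level in the treated eye. This was a log2 fold change of 2.65 ± 0.61 (SE, n = 9; adjusted p = 0.0291), or 6.26-fold (95% interval, 2.48 to 15.8). In control libraries the median was 4 counts, and 4 of the 9 held 3 counts or fewer. The call rested on the full set of mice: leaving out 1 mouse raised the adjusted p to 0.0529 (mouse 2), 0.0611 (mouse 4), 0.0831 (mouse 7) or 0.0636 (mouse 9), and leaving out mice 6 and 8 raised it to 0.0734 (range over its alternatives, 5.7e-05 to 1.00). Without the mouse block the log2 fold change was 2.05 (adjusted p = 0.289).

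*Ccl4* encodes a relative of Ccl3 that attracts monocytes and lymphocytes, and its gene is the neighbour of *Ccl3*. Levels were 0.0928 (lowest), 0.252 (median) and 1.19 CPM (highest) in control eyes, and 0, 0.337 and 4.24 CPM in Best1-Nrf2 eyes. The high value came from mouse 8, whose treated eye also had the highest *Ccl3*, and the next treated eye had 1.08 CPM. Its log2 fold change was 0.37 (95% interval, -1.20 to 1.95; adjusted p = 0.921), and -0.03 without mouse 8. A test of the difference between the responses of *Ccl3* and *Ccl4* was not made.

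*Ccl12* encodes a mouse chemokine that, like Ccl2, acts on Ccr2. It had 0, 0.209 and 1.28 CPM (lowest, median, highest) in control eyes and 0.0681, 0.518 and 2.66 CPM in treated eyes. The treated eye was higher in 7 of 9 mice. The log2 fold change of 1.04 was not called (95% interval, -0.28 to 2.35; adjusted p = 0.553), and the interval held both no change and a rise as large as that of *Ccl2*.

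*Cxcl12* was abundant in both groups and was not called. It had 5.87, 15.7 and 52.7 CPM (lowest, median, highest) in control eyes and 8.13, 16.01 and 45.3 CPM in Best1-Nrf2 eyes. Both groups spread widely and neither stood above the other. Its log2 fold change was 0.20 (95% interval, -0.50 to 0.91; adjusted p = 0.898), so a 2-fold change in either direction lay outside the interval.

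*Cx3cl1* ranged from 4.66 to 36.3 CPM in control eyes (median, 22.9) and from 8.67 to 53.6 CPM in treated eyes (median, 29.7). It was higher in 6 of 9 treated eyes, and 4 of these lay above every control eye. Its log2 fold change of 0.67 (95% interval, 0.16 to 1.18) had an unadjusted p of 0.0144 and missed the threshold after adjustment over all genes (adjusted p = 0.191). Mouse 3 was the lowest of both groups.

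*Il34* had the narrowest interval of the 9. Control eyes had 2.62 (lowest), 5.35 (median) and 9.77 CPM (highest), and Best1-Nrf2 eyes had 9.15, 9.94 and 15.05 CPM. In 8 of 9 mice the control eye lay below every treated eye, the exception being mouse 7. The treated eye was the higher one in 9 of 9 mice. The log2 fold change was 1.18 ± 0.23 (SE, n = 9; adjusted p = 0.00983), or 2.27-fold (95% interval, 1.61 to 3.20). It was called without each mouse in turn, with log2 fold changes of 1.09 to 1.30, and without the mouse block (1.08, adjusted p = 0.0115; range over its alternatives, 5.4e-06 to 0.489).

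The classical inflammatory cytokines were scarce in both groups. *Il1b* had 0.101, 0.285 and 1.03 CPM (lowest, median, highest) in control eyes and 0, 0.337 and 0.696 CPM in treated eyes, with a log2 fold change of 0.23 (95% interval, -1.34 to 1.79; adjusted p = 0.955). *Tnf* had 0, 0.478 and 4.16 CPM in control eyes and 0, 0.283 and 2.33 CPM in treated eyes, and its highest value in each group was in mouse 8. Its log2 fold change was -0.22 (95% interval, -2.04 to 1.60; adjusted p = 0.963). The sign of *Tnf* turned without mouse 5 (0.04) or mouse 6 (0.20), and that of *Il1b* turned without mouse 4 (-0.08). *Il6* had 3 counts in all over the 9 control libraries and 18 over the 9 treated libraries, of which 12 were in mouse 1 and 6 in mouse 5. No fold is given for it.

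Of the 10 transcripts, 1 was too low to judge and 3 could not be judged. *Il6* was not tested, and for *Ccl4*, *Il1b* and *Tnf* the 95% interval allowed a 2-fold change in both directions. All 3 had a control median under 1 CPM, as had the called *Ccl2* and *Ccl3*. A library with 0 counts still allows a level of up to 3 counts, which was 0.0522 to 0.171 CPM depending on the library. This limit covers counting error only, since amplified reads without molecular identifiers are not independent molecules. *Ccl12* was also scarce and its interval did not exclude a rise. For *Cxcl12* and *Cx3cl1* the reads were ample.

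**Figure D2:**
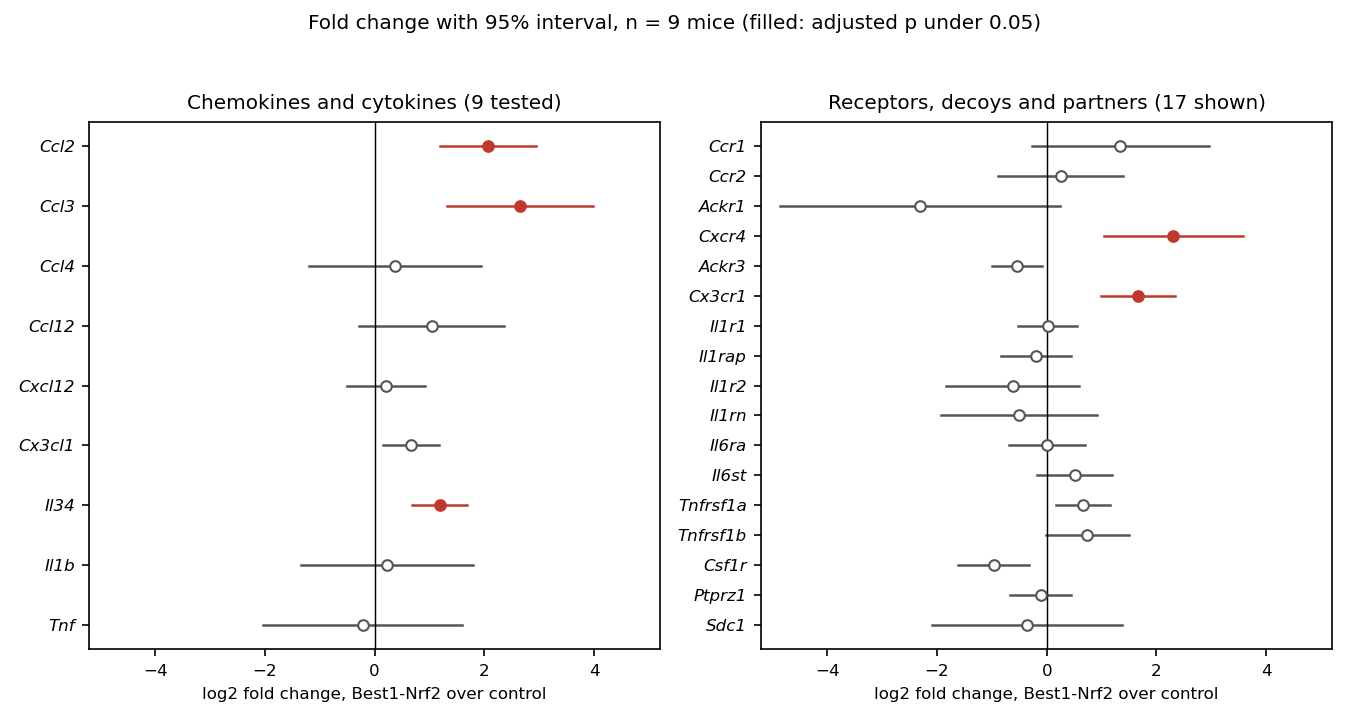
Log2 fold change of Best1-Nrf2 over control (horizontal axis) with its 95% interval (lines) for 9 chemokines and cytokines (left) and 17 of the receptors, decoys and partners tested (right), n = 9 mice. Filled red points passed an adjusted p of 0.05. *Ccl2*, *Ccl3*, *Il34*, *Cxcr4* and *Cx3cr1* lie to the right of 0, and the lines of *Ccl4*, *Il1b*, *Tnf* and *Ackr1* are long.

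The receptors, decoys and partners of these ligands numbered 19, of which 18 were tested (*Ackr2*, a scavenger of CC chemokines, was not). Of these, 2 rose and none fell (3.12% and 1.13% over all genes), 5 had an unadjusted p under 0.05 (12.8% over all genes), and the median log2 fold change was -0.05. *Cx3cr1*, the receptor of Cx3cl1, had 2.28, 3.66 and 5.54 CPM (lowest, median, highest) in control eyes and 4.25, 11.8 and 24.6 CPM in treated eyes. Of the treated eyes, 7 lay above every control eye. The log2 fold change was 1.66 ± 0.31 (SE, n = 9; adjusted p = 0.00773; higher in 9 of 9 mice; range of adjusted p over its alternatives, 1.5e-06 to 1.00). The annotated span of *Cx3cr1* overlaps other genes. *Cxcr4*, the receptor of Cxcl12, had 0, 0.139 and 0.741 CPM in control eyes and 0.324, 0.673 and 1.25 CPM in treated eyes. Its log2 fold change was 2.31 ± 0.58 (SE, n = 9; adjusted p = 0.0459; higher in 8 of 9 mice). Leaving out any 1 mouse but mouse 8 lost that call (adjusted p of 0.0625 to 0.128; range over its alternatives, 0.0011 to 0.569).

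For the ligands that rose, the receptors described here were not called. *Ccr2*, the receptor of Ccl2, had medians of 0.570 CPM in control and 0.661 CPM in treated eyes (log2 fold change, 0.25, 95% interval -0.88 to 1.39). *Ccr1* had a log2 fold change of 1.34 (95% interval, -0.28 to 2.96). *Csf1r*, the receptor of Il34, had 22.9, 107 and 412 CPM (lowest, median, highest) in control eyes and 16.9, 47.8 and 105 CPM in treated eyes. The treated eye was the higher one in 1 of 9 mice. The log2 fold change of -0.97 (95% interval, -1.61 to -0.33) had an unadjusted p of 0.0064 and an adjusted p of 0.113. With DESeq2 it was called (adjusted p = 0.0217; range over its alternatives, 0.0217 to 0.497). The other receptors of Il34, *Ptprz1* and *Sdc1*, had log2 fold changes of -0.11 and -0.36. The 95% interval of *Sdc1* allowed a 2-fold change in both directions, so it could not be judged.

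Among the receptors of the remaining ligands, *Tnfrsf1a* had medians of 61.3 CPM in control and 107 CPM in treated eyes, with a higher level in 8 of 9 mice that was not called (log2 fold change, 0.66, adjusted p = 0.185). *Tnfrsf1b* had a log2 fold change of 0.74 (adjusted p = 0.408). For the Il1b pathway, *Il1r1* had 0.01, its partner *Il1rap* -0.20, the decoy *Il1r2* -0.62 and the antagonist *Il1rn* -0.50 as log2 fold changes, none of them called. The Il6 receptor genes *Il6ra* (0.00) and *Il6st* (0.51) were not called either. *Ackr3*, the scavenger of Cxcl12, had medians of 82.8 CPM in control and 54.7 CPM in treated eyes and a log2 fold change of -0.54 (adjusted p = 0.263). *Ackr1*, a chemokine-binding protein of vessels and red cells, had -2.31 with a 95% interval of -4.86 to 0.25. The group means ran the other way (0.982 CPM in control and 1.72 CPM in treated eyes), as the treated eye of mouse 6 had 13.5 CPM, or 466 of the 548 treated counts.

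Other chemokines and cytokines were also called, beside the 3.12% of all genes called as higher. Of 30 other chemokines 15 were tested and 2 rose. *Cxcl5*, which attracts neutrophils, had 0.0928, 0.415 and 1.03 CPM (lowest, median, highest) in control eyes and 1.43, 2.41 and 4.17 CPM in treated eyes, so that the groups did not overlap (log2 fold change, 2.67 ± 0.46 SE, adjusted p = 0.00485). *Ccl17*, a ligand of Ccr4 on T cells, changed by 1.64 ± 0.38 on the log2 scale (SE; adjusted p = 0.0276), with medians of 0.513 and 1.62 CPM. Of 39 other cytokines and growth factors 38 were found in the table, 21 were tested and 3 rose. *Csf1*, which shares the receptor Csf1r with Il34, had 2.91, 6.87 and 12.6 CPM in control eyes and 8.48, 24.9 and 40.8 CPM in treated eyes, a change of 1.71 ± 0.23 on the log2 scale (SE; adjusted p = 0.000899; 9 of 9 mice higher; range of adjusted p over its alternatives, 5.0e-11 to 0.914). *Spp1*, which encodes osteopontin, had 1.11 ± 0.21 (SE; adjusted p = 0.00879), and *Gdf15*, a stress-induced cytokine, had 1.33 ± 0.32 (SE; adjusted p = 0.0382). *Csf1* and *Il34*, the ligands of Csf1r, were both higher in the treated eye of each of the 9 mice.

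The signalling genes downstream of these cytokines were counted beside the same shares over all genes (3.12% higher, 1.13% lower). Of 26 NF-kB pathway genes tested 1 rose, *Icam1*, the adhesion molecule for leukocytes, with medians of 11.3 and 31.2 CPM and a change of 1.48 ± 0.21 on the log2 scale (SE; adjusted p = 0.00122). The median over the 26 was -0.07. Of 10 STAT3 and acute phase genes 1 rose, *Cebpb* (0.90 ± 0.15 SE, adjusted p = 0.00371), which encodes a transcription factor of cytokine genes, and the median was 0.09. Of 11 immediate early genes none rose and 1 fell, *Egr1* (-1.24 ± 0.28 SE, adjusted p = 0.0269), with a median of -0.43. Of 9 genes for the maturation of Il1b and the shedding of Tnf and Cx3cl1 none was called and none had an unadjusted p under 0.05 (median, 0.18), also by edgeR.

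Transcripts of other cell types moved with the group. Of 20 macrophage and microglia markers 13 rose and none fell (median log2 fold change, 1.68), where 3.12% of all genes rose and 1.13% fell. Their summed level ranged from 206 to 387 CPM in control eyes (median, 272) and from 338 to 1127 CPM in Best1-Nrf2 eyes (median, 713), and was higher in 9 of 9 mice. The largest changes were in *P2ry12*, a purine receptor of microglia (2.45, adjusted p = 0.00308), *Trem2*, a lipid receptor of myeloid cells (2.30, adjusted p = 0.00143), *Adgre1*, which encodes F4/80 (2.28, adjusted p = 0.0252), *Tyrobp*, the adaptor of Trem2 (2.01, adjusted p = 0.00282), *Fcer1g*, an Fc receptor chain (1.94, adjusted p = 0.0115), and *C1qa*, a complement component (1.93, adjusted p = 0.000568). No marker of this list was at 0 in all libraries. In bulk RNA, more cells of a type and more RNA per cell cannot be told apart, and the part of these cells in the chemokine results was not tested. With the mean level of these markers as a covariate, the log2 fold change was 2.29 for *Ccl2*, 2.23 for *Ccl3* and 1.87 for *Il34*. It was 0.30 for *Cx3cr1*, which these cells express, and 1.55 for *Csf1*. None of these 5 was called, and over all genes only 17 were. *Csf1r*, the receptor of Il34 and Csf1, had a log2 fold change of -0.97 as reported and -2.20 with this covariate, and was called in neither.

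Photoreceptor markers moved the other way. Of 12 tested 8 fell and none rose (1.13% and 3.12% over all genes), with a median log2 fold change of -3.14. They summed to 246 to 1903 CPM in control eyes and 32.0 to 228 CPM in treated eyes, and were lower in 9 of 9 mice. The falls were largest in *Opn1sw* (-5.94, adjusted p = 0.00202), *Sag* (-5.03, adjusted p = 0.000375), *Arr3* (-4.80, adjusted p = 0.000982), *Opn1mw* (-4.68, adjusted p = 0.00214), *Gngt2* (-3.27, adjusted p = 0.0229) and *Pde6c* (-3.25, adjusted p = 0.000429), which encode opsins, arrestins and phototransduction proteins. With these markers as a covariate, the log2 fold change was 3.19 for *Ccl2*, 2.68 for *Ccl3* and 0.86 for *Il34*. It was 1.71 for *Cx3cr1* and 0.56 for *Csf1*. None of these 5 was called, and 10 genes were called over the whole table. The part of retinal remnants in the chemokine results was not tested.

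**Figure D3:**
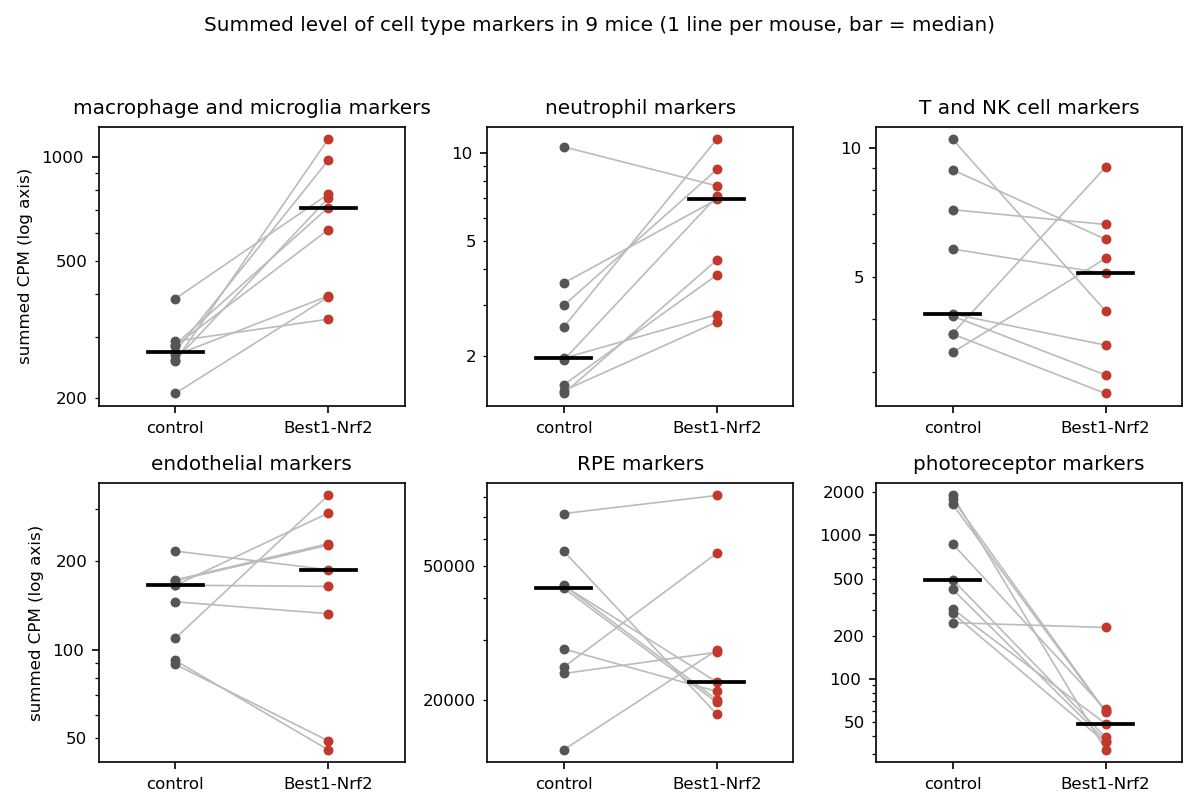
Summed level of 6 lists of cell type markers in CPM (vertical axes, log scale) in the control and the Best1-Nrf2 eye of 9 mice. Points are eyes, lines join the eyes of a mouse, and bars are medians. Macrophage and microglia markers go up and photoreceptor markers go down in 9 of 9 mice, while T and NK cell markers go up in 2 of 9.

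The other marker lists are given beside the 3.12% of all genes called as higher and the 1.13% called as lower. Of 17 RPE markers 5 fell and none rose (median, -0.31), among them *Rpe65* (-2.81, adjusted p = 0.000241), *Lrat* (-1.78, adjusted p = 0.00139), *Rgr* (-1.38, adjusted p = 0.0158), *Rlbp1* (-1.16, adjusted p = 0.00951) and *Rdh5* (-1.04, adjusted p = 0.0389), all of the retinoid cycle. Their list summed to 14203 to 71555 CPM in control eyes (median, 42875) and 18110 to 80971 CPM in treated eyes (median, 22569), and was higher in the treated eye of 4 of 9 mice. Of 3 neutrophil markers tested 1 rose, *Csf3r* (1.83, adjusted p = 0.0374). *Elane*, a gene of neutrophil precursors, had no count in any library. The 9 neutrophil markers summed to 1.49 to 10.5 CPM in control eyes (median, 1.97) and 2.63 to 11.1 CPM in treated eyes (median, 6.92), and were higher in 8 of 9 mice. Of the T and NK cell (3 tested; median, -0.11), B cell (2; -0.78), mast cell (3; 0.37), endothelial (10; 0.13), Müller glia (9; 0.00) and inner retina neuron markers (12; -0.19) none was called by edgeR. At an unadjusted p under 0.05 there were 0 in the first 4 of these lists, 1 among the Müller glia and 2 among the inner retina markers. Of 5 pericyte markers 2 fell, *Kcnj8* (-1.92, adjusted p = 0.000375) and *Cspg4* (-1.12, adjusted p = 0.0485), and the median was -0.11. The pericyte list summed to 29.9 to 151 CPM in control eyes (median, 69.6) and 24.3 to 50.04 CPM in treated eyes (median, 33.8), and was lower in 9 of 9 mice. Of 9 markers of fibroblasts and sclera 1 rose, *Col3a1* (1.15, adjusted p = 0.0462), and the median was 0.57. They summed to 204 to 574 CPM in control eyes (median, 431) and 368 to 927 CPM in treated eyes (median, 529), and were higher in 8 of 9 mice. All 8 genes of the Nrf2 check list, *Nfe2l2* and 7 known targets, rose, with a median of 4.29.

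The direction of *Ccl2*, *Ccl3*, *Ccl12*, *Cxcl12* and *Il34* was the same under each alternative that gave them a value, with lowest log2 fold changes of 1.67, 2.05, 0.67, 0.02 and 0.86. The alternatives reused the same eyes, so a kept sign is not independent support. *Ccl12* and *Cxcl12* were called under none of them. The direction of *Ccl4*, *Cx3cl1*, *Il1b* and *Tnf* turned under at least 1 alternative.

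**Figure D4:**
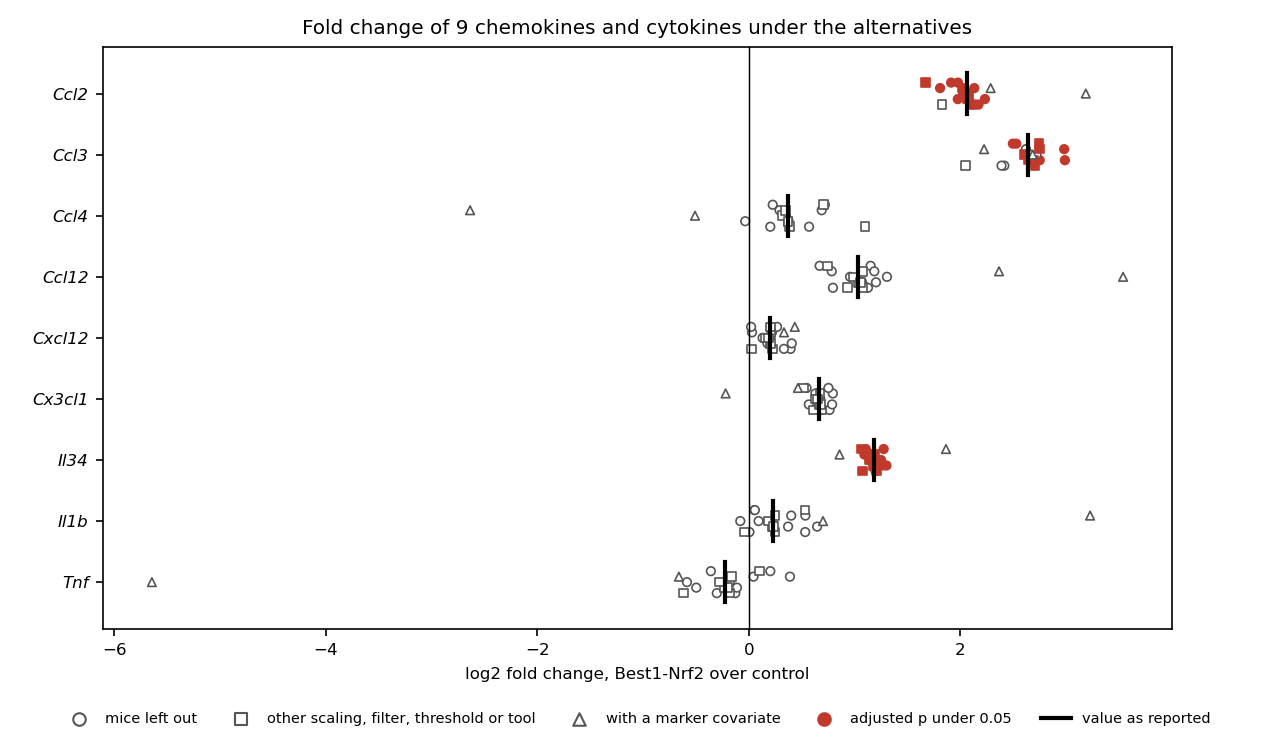
Log2 fold change of 9 chemokines and cytokines (horizontal axis) as reported (black bars) and under 19 or 20 alternatives each (points). Circles are for mice left out and triangles for a marker covariate. Squares are for the fit without the mouse block or for another scaling, filter or tool. The legend also names a threshold for the squares, but no point stands for one. Red points had an adjusted p under 0.05. *Ccl2*, *Ccl3*, *Ccl12*, *Cxcl12* and *Il34* stay to the right of 0 at each point, and *Ccl4*, *Cx3cl1*, *Il1b* and *Tnf* have points on both sides.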

How the data were processed

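Per the labels, RNA of 18 eyecups from 9 *rd1* mice was sequenced, 9 libraries per group. The study's methods give fewer pairs. The kit was an Ultra Low v4 kit, and the libraries were spread over separate sequencing runs; which library was in which run is not given in the sources used here, so a run effect cannot be told apart. The authors ran STAR against mm10 and Ensembl annotation, then featureCounts, and a second route through Salmon (0.8.1 in the submitters' processing notes) and tximport. The deposited table holds estimated counts per gene (expected counts, whole numbers, unscaled), and which of the counters made it is not stated. Symbols were found for 47224 of 47729 gene IDs. Coordinates and exon lengths are of GENCODE on GRCm38, the assembly named mm10, and promoters are of RefSeq on GRCm38.p6. No sequence could be matched for *Ccl2*, *Ccl4* and *Il34*.

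Genes were kept by filterByExpr (minimum count, 10), scaled by TMM and tested with edgeR 4.0.16 (R 4.3.3), quasi-likelihood F test, mouse as a block, Benjamini-Hochberg adjustment over 18958 genes and a threshold of 0.05. Both eyes of a mouse share an individual number in the labels, which makes them pairs. The correlation of their deviations from the group means had a median of -0.00095 (range, -0.37 to 0.64). No 2 libraries of a group were alike within sampling noise (chi-square per degree of freedom at least 49.5 over 72 pairs). The SE and the 95% interval of a log2 fold change come from the F statistic. Log2 CPM values in the closing section used a prior count of 2. The alternatives were no block, RLE and upper-quartile scaling, DESeq2 1.42.0, limma 3.58.1 (voom with sample weights), other filters (none, by the design matrix, or at least 10 counts in every library), a threshold of 0.1, marker covariates, and each mouse left out in turn. A further alternative without mice 6 and 8 was added after the data were seen. The methods were tested on simulated data.

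The 10 members, the gene lists and the marker lists were chosen with earlier results of these data known. Of 294 list entries 293 were found. Named are the 10 members, their receptors, *Nfe2l2*, and from each other list up to 6 called genes with the largest absolute log2 fold change. *Rpe65* was also named as a check of the tissue. The values of 1 receptor are not reported here.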

Additional observations from a re-analysis of the deposited data

Results flagged for a closer look

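Of 28 groups of 9 eyes screened, 2 held an eye far from the others, where chance gives about 1 in 20 (1.4 of 28). For *Cx3cl1* the Best1-Nrf2 eye of mouse 3 had 3.13 on the log2 CPM scale and the next lowest treated eye had 4.51, a gap of 0.527 of the group's range. The control eye of the same mouse was also the lowest of its group. For *Il1b* the Best1-Nrf2 eye of mouse 8 had no count, which is -4.23 on the log2 CPM scale, and the next lowest treated eye had -2.02, a gap of 0.579 of the range.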

How the results depend on the processing

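The number of chemokines and cytokines called higher, 3 as reported, was 0 to 3 over 21 alternatives, and none was called lower in any of them. It was 1 without the replicate block (*Il34*), 1 under the filter of at least 10 counts everywhere (which left only *Cxcl12*, *Cx3cl1* and *Il34* to test), and 0 with the photoreceptor covariate or with the macrophage and microglia covariate. Leaving out each mouse in turn gave 2 to 3. Over all genes the covariates left 10 and 17 calls, against 806 as reported, 742 without the block, 1627 with DESeq2, 1426 with voom and 540 to 1046 without each mouse.

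The number of receptors called higher, 2 as reported, was 1 without the block, with upper-quartile scaling, with no count filter, with the filter by design matrix and under the strictest filter, 0 with either covariate, and 3 with voom or without mice 6 and 8. Leaving out each mouse in turn gave 1 to 2. With DESeq2, 2 receptors were called lower, against 0.

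Among single genes, *Ccl4* reversed to -0.51 with the photoreceptor covariate, -2.63 with the macrophage and microglia covariate and -0.033 without mouse 8 (-0.033 to 0.72 without each mouse in turn). *Cx3cl1* reversed to -0.22 with the photoreceptor covariate. *Il1b* reversed to -0.043 without the replicate block and -0.080 without mouse 4 (-0.080 to 0.65 without each mouse in turn). *Tnf* reversed to 0.10 with voom, 0.04 without mouse 5, 0.20 without mouse 6 (-0.58 to 0.20 without each mouse in turn) and 0.39 without mice 6 and 8. None of these was called under any alternative, and the cause was not tested. Beyond the calls of *Ccl2*, *Ccl3* and *Cxcr4*, the block changed no call of the members and receptors followed gene by gene. Of the 9 members tested, 6 had a control median under 1 CPM, where counting error is largest, and so had *Cxcr4*.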

Other observations

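Of the other cytokine pathway genes, 2 that did not pass the filter on low counts were chosen here after their values were seen. *Cxcl13*, which attracts B cells, had 23 counts over the 9 control libraries, with at most 7 in a library, and 293 counts over the 9 Best1-Nrf2 libraries, with at most 93. It was higher in the treated eye of 6 of 9 mice, and 3 libraries of each group had none. *Nlrp3*, the sensor of the inflammasome that leads to mature Il1b, had 4 counts over the control libraries and 57 over the treated libraries, with at most 27 in a library. Neither was tested.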
